A study of Mus musculus with 16 samples.

Results

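The transcripts of 10 transcription factors that maintain the naive pluripotent state of mouse embryonic stem (ES) cells were followed through the loss of Rybp. The members were the core factors Pou5f1 (Oct4), Sox2 and Nanog and the naive factors Esrrb, Klf2, Klf4, Klf5, Tfcp2l1, Zfp42 (Rex1) and Tbx3, and they were found as the probe sets of the deposited table that carry one of these symbols and no other. They came to 10 of the 18193 genes of the table and 21 of its 34945 probe sets with a single gene symbol. Where a gene had several, the probe set of highest average level was taken for it, and the others were examined beside it.

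The study compared ES cells of a 129/B6 hybrid background with and without Rybp, a subunit of variant Polycomb repressive complex 1, on 16 Affymetrix arrays. Cells of clones 15 and 10 labelled Rybp-KO (KO here) had received 4-hydroxytamoxifen (OHT) for 24 hours at 800 nM, and cells of the same clones labelled wild-type control (control here) had received none. RNA was taken on day 12 and day 4 after treatment, with untreated cells collected for the same days. Each of the 4 groups, KO at day 12, control at day 12, KO at day 4 and control at day 4, held 4 arrays, a replicate 2 and a replicate 1 of either clone. Culture was in serum-containing medium with LIF (leukaemia inhibitory factor), on irradiated fibroblast feeders or on gelatin, and the surface behind a given array is not stated. No control had OHT, so effects of OHT and of Rybp loss cannot be told apart. The labels name neither the alleles that OHT removes nor the recombinase. Nor do they say that replicates came from separate cultures, and p-values then reflect array-to-array spread that may be technical.

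Pou5f1, a POU-domain factor, and Sox2, an HMG-box factor, bind DNA side by side and, with the homeodomain factor Nanog, form the core of the pluripotency network. Around the core stand factors that keep ES cells in the naive state of the preimplantation epiblast, several of them linked to outside signals. In mouse ES cells Klf4, Klf5 and Tfcp2l1 respond to LIF through Stat3, Esrrb to Wnt signalling through relief of Tcf7l1, and Tbx3 to LIF through phosphoinositide 3-kinase. Signalling through FGF and ERK favours exit from the naive state, and BMP acting through Id proteins opposes neural differentiation.

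The values were linear intensities with an identical distribution on all 16 arrays (median 93.3). Each array thus had the same median, and precision is limited by the number of arrays. Differences below are on the log2 scale with their standard error, from a limma fit to all 18195 entries tested, with terms for the 4 groups and for clone and Benjamini-Hochberg adjustment. A gene was called at an adjusted p under 0.05. Rybp probe set 1421111_at, which also matches a Rybp pseudogene, read 109 to 256 in KO cells against 2749 to 3434 in control cells at day 12, and 84.9 to 125 against 2047 to 3319 at day 4. The other Rybp probe set, 1428219_at, was higher in KO cells, at 2815 to 5148 against 157 to 2108 in control cells at day 12. Those control readings differed by clone, at 157 and 170 in clone 15 and 1404 and 2108 in clone 10. Which exons OHT removes is not given. All 8 ES cell markers examined were bright, and the dimmest reading, of Lin28a, was 3797. Of the feeder fibroblast markers, Dcn averaged 34.6, Lum 34.9 and Col1a2, the brightest, 432.

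The sequence before the transcription start is shown for 6 members, since several of the 10 factors are known to bind at each other's genes. Of the 6 genes whose probe set of highest level was called lower in replicate 2 at day 4, they are the 4 with a window. Added are Nanog, which was not called, and Zfp42, which differed most between the clones. For Esrrb the call holds for that probe set alone, since Esrrb 1422986_at was higher in replicate 2 at day 4. Each window covers 250 bases before to 50 bases after a transcription start of the RefSeq annotation of GRCm38.p6. The table holds windows for 8 of the 10 members, and Klf5 and Tbx3 are named only. Capitals mark matches, on either strand, to the octamer core TTTGCAT, the Sox motif ACAATG, the STAT motif TTCNNNGAA, the KLF motif GGGNGNGGC and the Esrrb motif AAGGTCA. The windows lie at chr8:72318812-72319111 (Klf2, plus strand), chr4:55532426-55532725 (Klf4, minus strand), chr12:86360867-86361166 (Esrrb, plus strand, the first of 2 windows), chr1:118627695-118627994 (Tfcp2l1, plus strand), chr6:122707239-122707538 (Nanog, plus strand, the first of 2 windows) and chr8:43306960-43307259 (Zfp42, minus strand).
Klf2: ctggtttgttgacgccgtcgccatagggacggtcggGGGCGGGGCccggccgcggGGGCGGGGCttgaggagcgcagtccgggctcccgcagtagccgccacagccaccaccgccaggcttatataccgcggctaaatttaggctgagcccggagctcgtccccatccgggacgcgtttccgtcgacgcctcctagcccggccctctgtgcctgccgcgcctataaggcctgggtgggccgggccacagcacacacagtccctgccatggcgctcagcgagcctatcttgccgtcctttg
Klf4: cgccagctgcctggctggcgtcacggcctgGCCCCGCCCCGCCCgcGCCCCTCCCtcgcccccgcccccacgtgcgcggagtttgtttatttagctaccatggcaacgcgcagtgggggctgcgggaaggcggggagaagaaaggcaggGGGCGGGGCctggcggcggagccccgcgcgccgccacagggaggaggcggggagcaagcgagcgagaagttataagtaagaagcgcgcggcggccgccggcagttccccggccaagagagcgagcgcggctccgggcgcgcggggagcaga
Esrrb: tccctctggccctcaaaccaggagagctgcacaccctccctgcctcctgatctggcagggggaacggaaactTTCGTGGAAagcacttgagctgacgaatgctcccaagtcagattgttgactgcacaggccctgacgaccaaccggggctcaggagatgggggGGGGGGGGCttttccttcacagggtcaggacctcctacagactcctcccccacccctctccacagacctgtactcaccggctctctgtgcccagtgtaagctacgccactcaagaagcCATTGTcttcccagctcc
Tfcp2l1: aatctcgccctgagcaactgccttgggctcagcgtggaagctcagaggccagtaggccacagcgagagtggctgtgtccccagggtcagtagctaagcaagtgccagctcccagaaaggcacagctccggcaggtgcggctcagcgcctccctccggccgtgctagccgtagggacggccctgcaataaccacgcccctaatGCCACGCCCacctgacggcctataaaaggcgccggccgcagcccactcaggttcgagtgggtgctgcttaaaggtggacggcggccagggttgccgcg
Nanog: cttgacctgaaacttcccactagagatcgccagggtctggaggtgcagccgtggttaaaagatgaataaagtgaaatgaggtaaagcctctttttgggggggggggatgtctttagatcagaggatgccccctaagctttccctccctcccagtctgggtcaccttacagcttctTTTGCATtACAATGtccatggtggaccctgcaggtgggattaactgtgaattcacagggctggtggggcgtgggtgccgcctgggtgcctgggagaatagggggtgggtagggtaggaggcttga
Zfp42: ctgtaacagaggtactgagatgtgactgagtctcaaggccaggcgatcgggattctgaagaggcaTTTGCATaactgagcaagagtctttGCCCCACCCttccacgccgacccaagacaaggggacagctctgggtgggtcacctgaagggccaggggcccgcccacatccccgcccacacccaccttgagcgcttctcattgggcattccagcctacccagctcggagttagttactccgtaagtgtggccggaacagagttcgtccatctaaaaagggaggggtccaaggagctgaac
In the Nanog window the octamer core at position -75 and the Sox motif at position -67, counted from the start, stand a single base apart, the arrangement known for joint binding of Oct4 and Sox2. Zfp42 holds an octamer core at position -185 and a KLF motif at position -160. Esrrb holds a STAT motif at position -178 and a Sox motif at position 33. Of the 4 members taken as lower by that probe set, Klf2 holds 2 matches to the KLF motif and Klf4 holds 4. Esrrb and Tfcp2l1 hold 1 each in the printed windows. The KLF motif is also found in windows of members that were not lower, with 2 matches for Sox2 and 1 each for Pou5f1 and Zfp42, while the second Esrrb window and both Nanog windows hold 0. Of all 32851 windows in the table, 25.8% hold the KLF motif, 4.63% the octamer core, 12.6% the Sox motif, 8.3% the STAT motif and 4.72% the Esrrb motif. The KLF motif is rich in G and C, as are many promoters, and a match is a run of letters and not a measured binding site.

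Between arrays of a group, the core factors were steady and several naive factors were not. The SD left after groups and clone was 0.12 for Sox2, 0.13 for Nanog and 0.14 for Pou5f1 on the log2 scale. It was 0.75 for Klf2, 0.56 for Esrrb, 0.47 for Klf5, 0.34 for Tfcp2l1, 0.33 for Tbx3, 0.27 for Klf4 and 0.19 for Zfp42. The median over the 4081 genes with a mean log2 intensity above 10 was 0.19. Klf2, a Krüppel-like zinc finger factor that supports self-renewal, stood at the 99.8th percentile of that spread and Sox2 at the 16.9th. Over all 16 arrays Klf2 ran from 1327 to 6504, a 4.90-fold range, and Zfp42 from 2289 to 9896, a 4.32-fold range. Nanog (7762 to 13052) and Sox2 (8601 to 14452) each spanned 1.68-fold, and Pou5f1 (7558 to 13405) spanned 1.77-fold. When the replicate number within each day was added to the fit, the spread of Klf2 was 0.25, that of Esrrb 0.20 and that of Klf5 0.16.

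**Figure D1:**
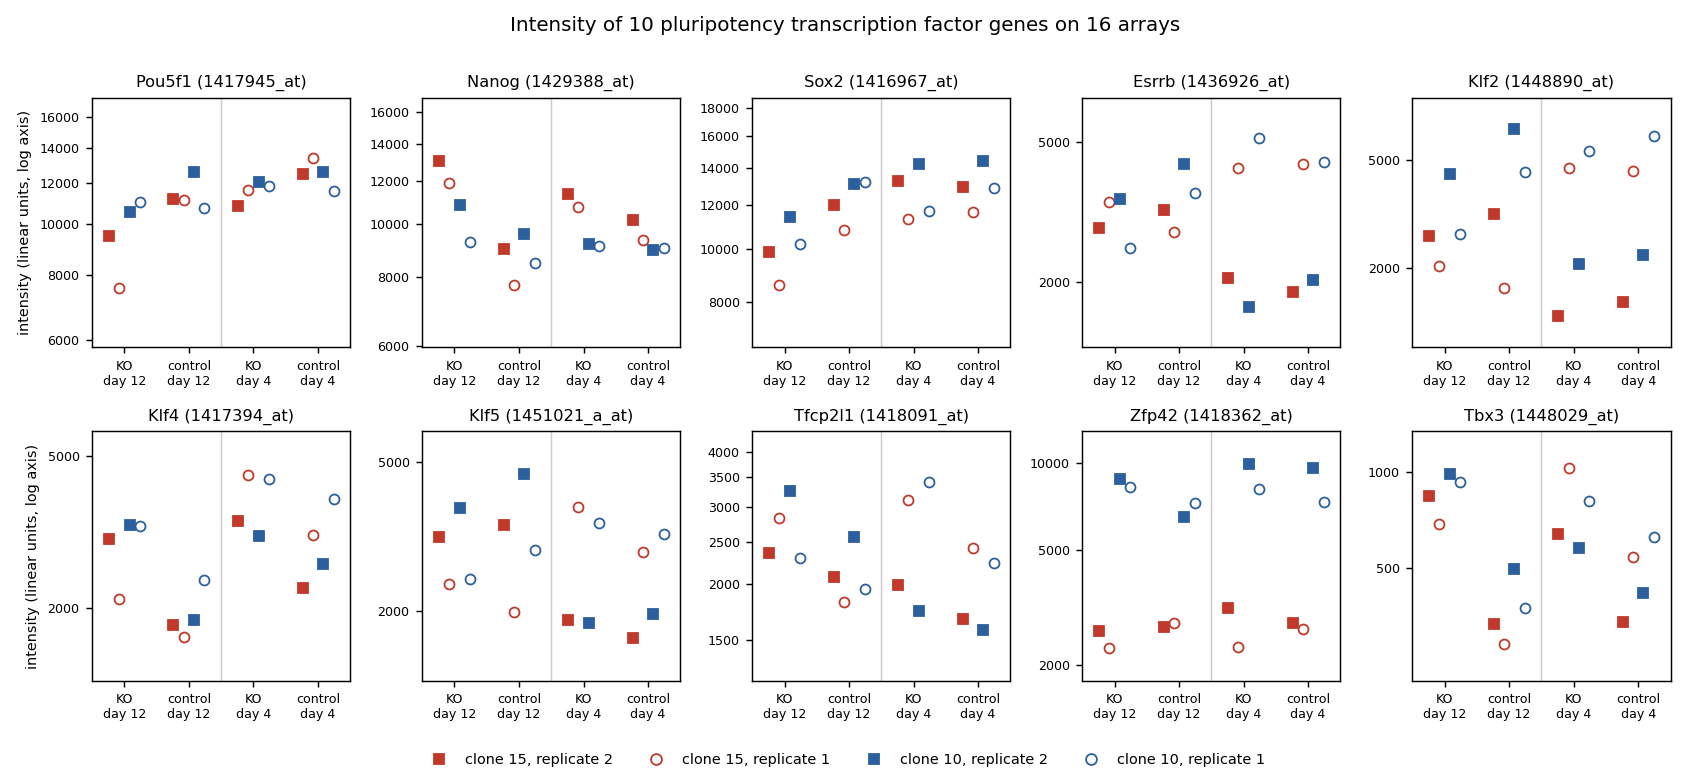
Intensity of the probe set standing for each of the 10 genes on all 16 arrays (linear units on a log axis whose range differs between panels), KO left of control and day 12 left of day 4. Red points are clone 15 and blue points clone 10, filled squares replicate 2 and open circles replicate 1. Zfp42 parts by clone on every array, Tbx3 parts by KO at day 12, and Klf2 and Esrrb 1436926_at part by replicate number at day 4.

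Among the 10 factors, Tbx3, a T-box repressor and activator that sustains self-renewal, was the 1 whose transcript passed the test as higher in KO cells. At day 12 it was 2.32-fold higher in KO than in control cells. The differences of Klf4 and Nanog were positive and those of Sox2 and Pou5f1 negative, without passing the test. With each KO and control pair as a replicate block, Klf4 also passed as higher and Sox2 as lower at day 12 (limma adjusted p = 0.025 and 0.0417), where 8.13% of all entries were called. In all, 1 of the 10 members was called higher and 0 lower at day 12, where 3.09% of all entries were called, 2.19% higher and 0.901% lower. The median difference was -0.02 over the members and 0.01 over all entries. At day 4 the count was 0 of 10, against 0.627% of all entries, 0.566% higher and 0.0605% lower. In bulk RNA such a difference cannot tell a change in the number of cells of a type from a change in RNA per cell.

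Values per array run below through both replicates of clone 15 (number 2 before number 1) and then both of clone 10. Tbx3 (1448029_at) read 841, 685, 981 and 931 in KO cells at day 12, against 335, 289, 498 and 374 in control cells. Every KO array lay above every control array, as it did for 7.41% of all entries that day. The difference was 1.22 ± 0.23 (limma adjusted p = 0.0133), and without any 1 of the 16 arrays it stayed between 1.13 and 1.34 at a limma adjusted p of at most 0.0459. Within clone 15 it was 1.29 ± 0.33 and within clone 10 1.15 ± 0.33, on 2 against 2 arrays each, and neither passed alone (limma adjusted p = 0.236 and 0.289). Within replicate 2 it was 1.15 ± 0.21 and within replicate 1 1.28 ± 0.21 (limma adjusted p = 0.0363 and 0.0251). At day 4 Tbx3 read 638, 1029, 576 and 809 in KO cells, against 341, 541, 419 and 626 in control cells. These groups overlapped, since the replicate 1 controls lay near the replicate 2 KO arrays. Each KO array was above its own partner of the same clone and replicate number, as it was for 13.7% of all entries that day. The difference at day 4 was 0.67 ± 0.23 (limma adjusted p = 0.344). Averaged over arrays, Tbx3 was highest in KO cells at day 12 (859.6 ± 129.9, SD, n = 4), then in KO cells at day 4 (763 ± 203), control cells at day 4 (482 ± 126) and control cells at day 12 (374 ± 89.5). A further Tbx3 probe set, 1437479_x_at, read 457, 409, 641 and 438 in KO cells at day 12, against 195, 158, 302 and 257 in control cells, again without overlap. Its difference was 1.11 ± 0.34, which did not pass in a fit over every probe set (limma adjusted p = 0.156). The 3 remaining Tbx3 probe sets were dim, with readings from 2.91 to 178, and averaging all 5 gave 0.83 for the gene at day 12 (limma adjusted p = 0.421).

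Klf4, a reprogramming factor of the Krüppel-like family, read 3032, 2111, 3302 and 3273 in KO cells at day 12, against 1809, 1676, 1855 and 2361 in control cells. At day 4 it read 3371, 4465, 3091 and 4361 in KO cells, against 2254, 3111, 2602 and 3859 in control cells. It was higher in KO cells in all 8 pairs of clone, day and replicate number, with groups that overlapped on both days. The difference was 0.60 ± 0.19 at day 12 and 0.38 ± 0.19 at day 4 (limma adjusted p = 0.144 and 0.65). Nanog read 13052, 11868, 10817 and 9298 in KO cells at day 12, against 9004, 7762, 9601 and 8503 in control cells, and it too was higher in KO cells in all 8 pairs. Its difference was 0.36 ± 0.12 at day 12 and 0.10 ± 0.12 at day 4 (limma adjusted p = 0.136 and 0.945). It was 0.57 ± 0.16 within clone 15 and 0.15 ± 0.16 within clone 10. The test of the gap between the clones, 0.42 ± 0.23, did not pass (unadjusted p of 0.0978 by limma, fitted over all entries). Tfcp2l1, a CP2-family factor downstream of Stat3, was likewise higher in KO cells in 8 of 8 pairs, by 0.35 ± 0.24 at day 12 and 0.35 ± 0.24 at day 4 (limma adjusted p = 0.555 and 0.806). With Tbx3 these made 4 members higher in KO cells in every pair, as were 6.49% of all entries.

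Sox2 read 9856, 8601, 11428 and 10203 in KO cells at day 12, against 12022, 10805, 13100.4 and 13215 in control cells. It was lower in KO cells in 4 of 4 pairs, as were 14.1% of all entries, with overlap between clones. The difference was -0.30 ± 0.11 (limma adjusted p = 0.205). At day 4 Sox2 read 12636 ± 1376 in KO cells against 12985 ± 1141 in control cells (SD, n = 4 each), a difference of -0.04 ± 0.11. Pou5f1 read 9477, 7558, 10539 and 11019 in KO cells at day 12, against 11174, 11135, 12568 and 10734 in control cells, where the lowest array was KO clone 15 replicate 1. Its difference was -0.25 ± 0.12 (limma adjusted p = 0.343), with 1 of 4 pairs higher in KO cells, and -0.11 ± 0.12 at day 4. Esrrb, an orphan nuclear receptor, Klf2, Klf5 and Zfp42 gave differences at day 12 of -0.18 ± 0.38, -0.33 ± 0.50, -0.11 ± 0.32 and 0.07 ± 0.15. Their 95% intervals were wide for Klf2 (-1.42 to 0.77), Esrrb (-1.01 to 0.64) and Klf5 (-0.80 to 0.59) and narrower for Zfp42 (-0.25 to 0.39). At day 4 the same genes read 0.02 ± 0.38, -0.11 ± 0.50, 0.14 ± 0.32 and 0.04 ± 0.15.

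KO and control arrays of the same clone, day and replicate number deviated together in the fit without the replicate number, so each pair was also fitted as a block. The within-pair correlation was 0.377 in that fit and -0.058 with the replicate number as a term. Sharing by pair, beyond that by replicate number, was thus not shown. With the replicate block 3 members passed at day 12, Tbx3 (limma adjusted p = 0.00347), Klf4 (0.025) and Sox2 (0.0417), where 8.13% of all entries were called. At day 4 the block gave 0 members, with Tbx3 nearest at a limma adjusted p of 0.0686, against 0.978% of all entries. A fit with terms for the replicate number within each day, added after the day 4 arrays were seen to part by it, called 4 members at day 12, where 11.9% of all entries passed. They were Tbx3 (limma adjusted p = 6.08e-04), Sox2 (0.0144), Klf4 (0.0179) and Nanog (0.028). That fit also called Tbx3 at day 4 (limma adjusted p = 0.0378), where 2.05% of all entries passed. The size of the KO effect was not shown to differ between the days for any member. Of the members Tbx3 had the largest such gap, 0.55 ± 0.33 (limma adjusted p = 1). By limma 0% of all entries passed, with 832 of 18195, and 0 members, at an unadjusted p under 0.05. Between the clones, averaged over days, 0 members and 0% of all entries passed limma's test as well, with 585 entries, and 0 members, at an unadjusted p under 0.05.

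**Figure D2:**
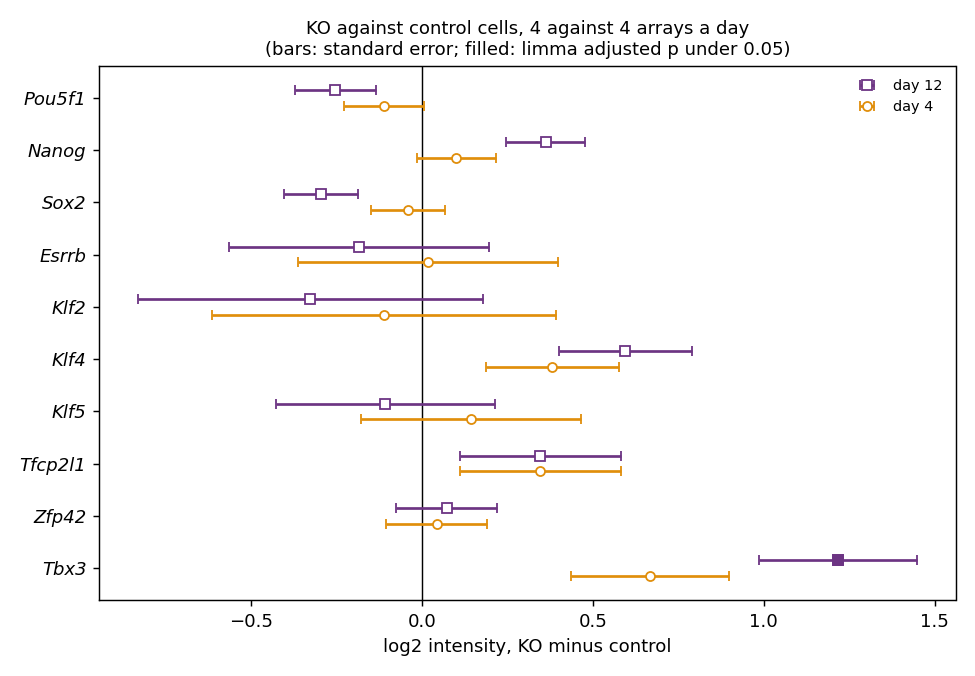
Log2 difference in intensity, KO minus control, for the 10 genes at day 12 (purple squares) and day 4 (orange circles), 4 against 4 arrays each. Bars are standard errors and a filled symbol is a limma adjusted p under 0.05. Tbx3 at day 12, at 1.22, is the single filled symbol.

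Markers of other cell types were read beside the KO comparison. At day 12, 1 of 7 primitive endoderm, 1 of 6 trophectoderm and 0 of 9 feeder markers were called, against 3.09% of all entries. At day 4, 0 of each were called, against 0.627% of all entries. The 7 primitive endoderm markers, all measured, summed to 5193 to 9371 in KO cells at day 12, against 3335 to 4949 in control cells, and to 467 to 1035 against 482 to 1097 at day 4. Of them Gata6 rose in KO cells at day 12, by 0.98 ± 0.24 (limma adjusted p = 0.0483). The 6 trophectoderm markers summed to 2420 to 2903 in KO cells at day 12, against 1949 to 2339 in control cells. At day 4 they summed to 3102 to 3489 in KO cells, against 2297 to 2887 in control cells. Tfap2c weighs most in these sums, averaging 1517 in KO and 1388 in control cells at day 12. Eomes (-0.25 ± 0.25) and Elf5 (-0.42 ± 0.74) had negative differences at day 12 and the others positive ones. Cdx2 and Elf5 stayed below the table's median of 93.3 on every array. Cdx2 averaged 46.7 in KO cells and 7.34 in control cells at day 12 (limma adjusted p = 0.0103), readings near background at which a fold has little meaning. The part of such cells in the values of the 10 members was not tested.

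Genes around the network were read from lists at day 12, where 3.09% of all entries were called, 2.19% higher and 0.901% lower. Of 16 measured auxiliary regulators 1 was higher in KO cells, Tcl1, an Akt cofactor (0.56 ± 0.13, limma adjusted p = 0.0306), and 0 were lower. Of 4 measured genes known as joint targets of Oct4 and Sox2, Fbxo15 was higher (1.04 ± 0.11, limma adjusted p = 1.78e-04) and Utf1, a chromatin protein of undifferentiated cells, was lower (-0.82 ± 0.18, limma adjusted p = 0.0256). Fbxo15 averaged 14097 in KO cells at day 12 against 6861 in control cells, and it was also higher at day 4 (0.58 ± 0.11, limma adjusted p = 0.0326). These are also 2 of the 8 ES cell markers, whose sums were 100598 to 108117 in KO cells and 102626 to 117458 in control cells at day 12.

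Of 12 measured genes of the Wnt and BMP pathways, 2 targets of BMP signalling were higher in KO cells at day 12. Id2 rose by 1.10 ± 0.17 (limma adjusted p = 0.00397) and Id3 by 1.21 ± 0.20 (limma adjusted p = 0.00656), and both encode inhibitors of basic helix-loop-helix factors. Id3 averaged 646 in KO cells against 283 in control cells at day 12, and rose at day 4 as well (1.01 ± 0.20, limma adjusted p = 0.0492). Of 12 LIF-Stat3 genes 0 passed on either day. The largest value among them at day 12 was that of Il6st, the shared LIF co-receptor, at -0.70 ± 0.19 (limma adjusted p = 0.0739). Of 9 FGF-ERK genes 0 passed, with Egr1, an immediate early target of ERK, at -1.21 ± 1.20 (limma adjusted p = 0.723). Of 13 genes of the primed epiblast, the pluripotent state after implantation, Otx2 was lower at day 12 (-1.70 ± 0.25, limma adjusted p = 0.00267), with means of 585 in KO and 1914 in control cells. None of the 22 measured relatives of the members, such as other Klf, Sox, Tbx, Pou and CP2 genes and Yy1, passed on either day, the largest value at day 12 being that of Sox1 (2.29 ± 0.98, limma adjusted p = 0.29). Of these lists and the marker lists, Fbxo15 and Id3 were the only genes past the threshold at day 4, as were 0.627% of all entries. The median difference at day 12 was -0.20 over the auxiliary regulators, -0.39 over the joint targets, 0.18 over the Wnt and BMP list, -0.24 over the LIF-Stat3 list, -0.35 over the FGF-ERK list, -0.40 over the primed epiblast genes and 0.03 over the relatives, beside 0.01 over all entries.

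Between the days none of the 10 members was called, while primitive endoderm markers rose. In KO cells at day 12 against day 4, 0 of 10 members were called, where 3.27% of all entries were (2.24% higher and 1.03% lower), and in control cells 0 of 10, against 0.995% (0.654% higher and 0.341% lower). The nearest in control cells was Klf4, which read 1925 ± 300.4 at day 12 and 2957 ± 697 at day 4 (SD, n = 4 each), a difference of -0.60 ± 0.19 (limma adjusted p = 0.177). The nearest in KO cells was Sox2, at 10022 ± 1163 on day 12 and 12636 ± 1376 on day 4, a difference of -0.34 ± 0.11 (limma adjusted p = 0.128). With the replicate number as a term, each of these differences passed (limma adjusted p = 0.0219 for Klf4 and 0.00728 for Sox2), where 9.43% and 13.4% of all entries did. In KO cells all 7 primitive endoderm markers were higher at day 12, led by Gata6 (3.04 ± 0.24), Dab2 (4.00 ± 0.35) and Pdgfra (4.16 ± 0.46), at limma adjusted p of 3.68e-05, 7.62e-05 and 6.02e-04. In control cells 3 of the 7 were, Gata6, Dab2 and Sox17. Of the LIF-Stat3 genes Socs3, the feedback inhibitor of Stat3 signalling, was lower at day 12 in KO cells (-0.63 ± 0.10, limma adjusted p = 0.00586) and in control cells (-0.48 ± 0.10, limma adjusted p = 0.0495). Gbx2, a homeobox target of Stat3, was lower in KO cells (-0.93 ± 0.23, limma adjusted p = 0.0427). Bmp4 (-0.63 ± 0.15), the POU factor gene Pou3f1 (-0.96 ± 0.21) and Otx2 (-1.05 ± 0.25) were lower at day 12 in KO cells too, at limma adjusted p of 0.0419, 0.0275 and 0.0395. The part of primitive endoderm cells in the members' values was not tested.

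Zfp42 set the clones apart. This zinc finger gene, related to Yy1 and widely used as a marker of undifferentiated ES cells, was about 3-fold lower in clone 15 than in clone 10, in KO and control cells and on both days. Its lowest, median and highest readings were 2289, 2683 and 3157 on the 8 arrays of clone 15, against 6486, 8194 and 9896 on the 8 of clone 10. No array of clone 15 reached any array of clone 10. How many of all entries lack overlap between the clones was not computed. The difference was -1.62 ± 0.10, a level 3.07-fold lower in clone 15, and its p was the smallest of all 18195 entries (limma adjusted p = 2.55e-05). In the 8 pairings of clone 15 with clone 10 arrays of the same group and replicate number it ran from -1.85 to -1.26. Zfp42 was the 1 member of 10 called between the clones, lower in clone 15. Of all entries 0.192% were called, 0.104% higher and 0.0879% lower in clone 15. Each clone is a single line, so a difference between the clones says nothing of other lines. Within a clone, Zfp42 did not pass for KO at day 12, at -0.17 ± 0.21 in clone 15 and 0.31 ± 0.21 in clone 10.

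The other members were closer between the clones. Klf2 was lower in clone 15 in all 8 pairings, with lowest, median and highest readings of 1327, 2327 and 4651 in clone 15 against 2064, 4472 and 6504 in clone 10. Its difference was -0.68 ± 0.36 (limma adjusted p = 0.727), and it passed with the replicate number as a term (limma adjusted p = 0.0304), where 1.24% of all entries did. Sox2 was also lower in clone 15 in 8 of 8 pairings, by less (-0.17 ± 0.08, limma adjusted p = 0.7). The share of all entries lower in every pairing of the clones was not computed. The remaining 7 members lay between -0.21 ± 0.14 (Klf4) and 0.15 ± 0.08 (Nanog). None of the listed pathway, epiblast or marker genes passed between the clones.

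At day 4 several naive factors parted by the replicate number. In replicate 2 arrays, KO and control and both clones alike, Klf2 (2.95-fold) and Esrrb (2.36-fold) were lower than in replicate 1, and Klf5, Tfcp2l1, Tbx3 and Klf4 were lower too. For Esrrb and Klf5 this held for the probe set of highest level and not for their other probe sets. Of the core factors, Pou5f1 and Nanog were not called and Sox2 was higher. Of the 10 members 6 were called lower and 1 higher in replicate 2. The whole table moved as well that day, with 28.5% of all entries called, 17.8% lower and 10.6% higher, and of the 4081 genes with a mean log2 intensity above 10, 52.2% were called in either direction. The median over the members was -0.54, against -0.07 over all entries. What replicate 2 and replicate 1 stand for is not stated in the labels, and the fit here added the replicate number within each day.

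Values below are for KO and control cells of clone 15 and then KO and control cells of clone 10. Klf2 read 1327, 1505, 2064 and 2234 in replicate 2 at day 4, against 4651, 4558, 5407 and 6124 in replicate 1. The replicates did not overlap, and the difference was -1.56 ± 0.17 (limma adjusted p = 1.47e-04). Between the replicate numbers, the share of all entries without overlap, or of the same sign in every pair, was not computed on either day. Lack of overlap is therefore not shown to be particular to the members. Esrrb (1436926_at) read 2062, 1872, 1699.5 and 2032 in replicate 2, against 4235, 4332, 5146 and 4411 in replicate 1, again without overlap (-1.24 ± 0.14, limma adjusted p = 1.82e-04). Klf5, a Krüppel-like factor that with Klf2 and Klf4 supports self-renewal, read 1885, 1685, 1856 and 1959.9 in replicate 2, against 3799, 2874, 3425 and 3219 in replicate 1 (-0.85 ± 0.12, limma adjusted p = 5.25e-04). Tfcp2l1 did not overlap either and read 1996, 1674, 1743 and 1574 in replicate 2, against 3114, 2413, 3418 and 2233 in replicate 1 (-0.66 ± 0.13, limma adjusted p = 0.00333). Tbx3 (-0.61 ± 0.14, limma adjusted p = 0.00761) and Klf4 (-0.48 ± 0.13, limma adjusted p = 0.0207) were lower in replicate 2 in 4 of 4 pairs, though replicate 2 KO arrays reached the level of replicate 1 control arrays. Sox2 read 13272, 12925, 14262 and 14452 in replicate 2, against 11319, 11665, 11691 and 12899 in replicate 1, a small rise without overlap (0.21 ± 0.06, limma adjusted p = 0.0335). Its call was lost in 8 of the 16 fits without 1 array, at a limma adjusted p of up to 0.109, and that of Klf4 in 5 of 16, at up to 0.0713. Zfp42 (0.30 ± 0.11, limma adjusted p = 0.0796), Nanog (0.05 ± 0.09) and Pou5f1 (-0.02 ± 0.10) were not called.

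At day 12 all 10 members had positive differences, and 1 was called, where 6.49% of all entries were, 2.66% higher and 3.83% lower. The median over the members was 0.18, against -0.03 over all entries. The called member was Klf5, which read 3144, 3402, 3776 and 4654 in replicate 2 against 2359, 1987, 2434 and 2915 in replicate 1, without overlap (0.62 ± 0.12, limma adjusted p = 0.0158). Klf2 was nearly as far apart at 2617, 3157, 4441 and 6504 in replicate 2 against 2036, 1688, 2663 and 4503 in replicate 1, higher in 4 of 4 pairs with some overlap (0.63 ± 0.17, limma adjusted p = 0.0547). With the replicate block as a random term Klf2 passed too, which made 2 members, where 8.17% of all entries were called. The within-pair correlation used there was -0.058, and a negative value narrows the error of a difference between pairs. The added call therefore does not show that pairing strengthens the result. Without KO clone 10 replicate 1 or control clone 10 replicate 2 at day 12 the count was 0, and without control clone 10 replicate 1 it was 2. The replicate difference at day 12 minus that at day 4, a comparison added after the data were seen, passed for 5 members, all higher, where 22.5% of all entries did, 12.8% higher and 9.65% lower. They were Klf2 (2.20 ± 0.24), Klf5 (1.47 ± 0.17), Esrrb (1.42 ± 0.20), Tfcp2l1 (0.87 ± 0.18) and Tbx3 (0.85 ± 0.19), at limma adjusted p from 3.78e-04 to 0.0106. The values of Esrrb and Klf5 are those of their probe set of highest level, and their other probe sets differed from it.

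**Figure D3:**
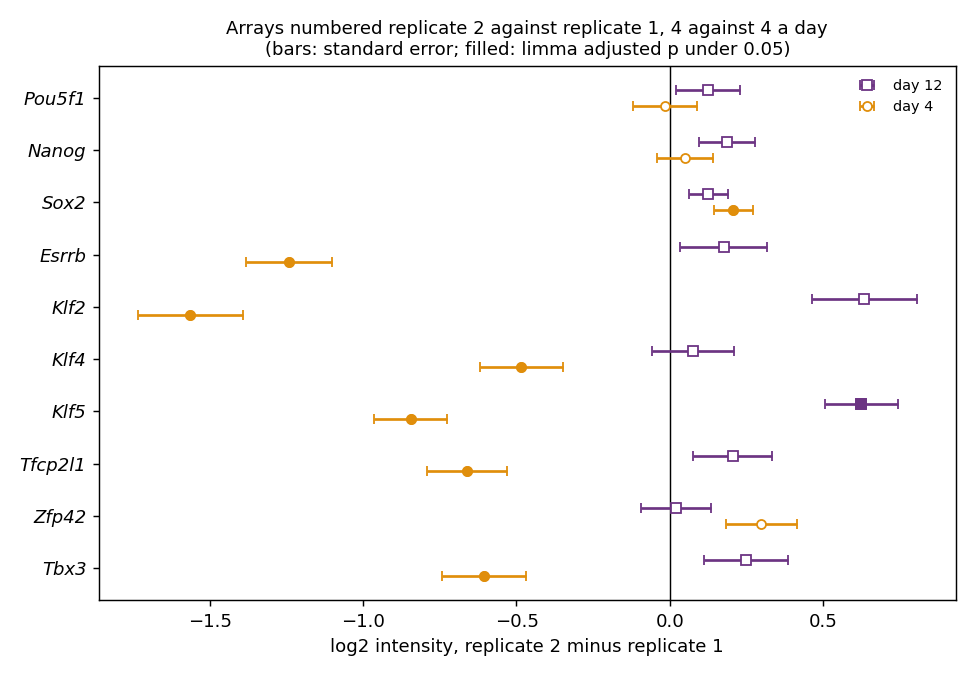
Log2 difference in intensity, replicate 2 minus replicate 1, for the 10 genes at day 12 (purple squares) and day 4 (orange circles), 4 against 4 arrays each. Bars are standard errors and a filled symbol is a limma adjusted p under 0.05. At day 4, 6 naive factors lie left of 0 with filled symbols and Sox2 right of it, and at day 12 all 10 lie right of 0 with Klf5 filled.

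Other readings parted by the same number at day 4. The 9 measured feeder fibroblast markers summed to 970 to 1406 in replicate 2, against 1574 to 2175 in replicate 1. Col1a1 (-1.50 ± 0.15), Thy1 (-1.36 ± 0.12) and Col1a2 (-0.70 ± 0.18) were called lower, at limma adjusted p of at most 0.0128. The other feeder markers were not called, and Dcn averaged 49.6 in replicate 2 and 17.6 in replicate 1. Feeder sums at day 12 went the other way, at 1775 to 2364 in replicate 2 against 1553 to 1697 in replicate 1. The 7 primitive endoderm markers summed to 467 to 590 in replicate 2, against 621 to 1097 in replicate 1, with Foxa2, Sox17 and Dab2 called lower. The ES cell markers summed to 104409 to 106708 in replicate 2, against 106977 to 109053 in replicate 1, a sum in which Dppa5a, averaging 45165, weighs most. Of these 8 markers 3 were called lower in replicate 2, Fgf4, Lin28a and Utf1, and 2 higher, Dppa4 and Tdgf1. Of all entries 17.8% were called lower and 10.6% higher that day. For the pyruvate carboxylase control probe sets the signal ratio of 3' over 5' ends, a sign of RNA length and labelling, averaged 0.57 ± 0.31 on the log2 scale in replicate 2 and 1.53 ± 0.24 in replicate 1 (SD, n = 4 each). That of the transferrin receptor controls averaged 1.06 ± 0.05 in replicate 2 and 1.25 ± 0.21 in replicate 1. At day 12 the pyruvate carboxylase values were 0.74 ± 0.28 in replicate 2 and 0.66 ± 0.19 in replicate 1. The part of feeder cells, RNA length or labelling in the members' values was not tested.

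The pathway genes were read between the replicate numbers at day 4 too, where 28.5% of all entries were called. Of 9 FGF-ERK genes 5 were lower in replicate 2 at day 4 and 1 was higher. Egr1 averaged 362 in replicate 2 against 6352 in replicate 1 (-4.15 ± 0.17, limma adjusted p = 3.85e-06). The ERK-responsive factor Etv5 (-1.09 ± 0.13, limma adjusted p = 2.31e-04) and the ligand Fgf4 (-0.75 ± 0.09, limma adjusted p = 2.84e-04) were lower as well, and Spry2, a feedback inhibitor of FGF signalling, was higher (0.49 ± 0.11, limma adjusted p = 0.00559). Of 12 LIF-Stat3 genes 4 were lower and 0 higher, led by the cytokine Lif itself (-0.81 ± 0.14, limma adjusted p = 0.00194), Il6st (-0.48 ± 0.09, 0.00348) and Gbx2 (-0.59 ± 0.15, 0.0128). Of 12 Wnt and BMP genes 3 were higher, Id1 (1.20 ± 0.11), the BMP receptor gene Bmpr1a (0.63 ± 0.08) and the kinase gene Gsk3b (0.55 ± 0.10), and 2 were lower, the Wnt feedback gene Axin2 (-1.25 ± 0.27) and Smad1 (-0.31 ± 0.09), at limma adjusted p of at most 0.0256.

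Of 16 auxiliary regulators 7 were lower in replicate 2 at day 4, with Mycn (-1.05 ± 0.09), the BTB-domain factor gene Nacc1 (-1.32 ± 0.15) and the orphan receptor gene Nr0b1 (-0.70 ± 0.08) at the smallest p, and 2 were higher, the nuclear receptor gene Nr5a2 (0.60 ± 0.14) and the zinc finger gene Zfx (0.34 ± 0.08), all at limma adjusted p of at most 0.0105. Of 22 relatives 7 were lower, led by Klf9 (-0.70 ± 0.07), Klf10 (-0.65 ± 0.08) and Ubp1 (-0.60 ± 0.09), a relative of Tfcp2l1. Klf6 (1.90 ± 0.20, limma adjusted p = 1.36e-04) and Pou3f1 (0.52 ± 0.13, limma adjusted p = 0.0119) were higher, so the Klf family did not move one way. Of 4 joint targets of Oct4 and Sox2, Fgf4, Lefty1 (-0.52 ± 0.11, limma adjusted p = 0.00495) and Utf1 (-0.26 ± 0.09, limma adjusted p = 0.0471) were lower. Of 13 primed epiblast genes 4 were higher, with Otx2 (0.72 ± 0.14), Pou3f1 and the DNA methyltransferase gene Dnmt3b (0.37 ± 0.12) at the smallest p, and Nodal was lower (-0.38 ± 0.12), at limma adjusted p of at most 0.0366. The median difference was -0.58 over the FGF-ERK list, -0.12 over the LIF-Stat3 list, 0.04 over the Wnt and BMP list, -0.18 over the auxiliary regulators, -0.39 over the joint targets, -0.29 over the relatives and 0.13 over the primed epiblast genes. Over all entries it was -0.07, with 17.8% called lower and 10.6% higher.

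At day 12, where 6.49% of all entries were called between the replicate numbers, against 28.5% at day 4, some of the listed genes passed. Dnmt3a (0.79 ± 0.08, limma adjusted p = 0.00254) and Fgf8 (2.56 ± 0.46, 0.0144) of the primed epiblast list were higher in replicate 2. So were 4 of 16 auxiliary regulators, among them Thap11 (0.45 ± 0.08), Nr0b1 (0.44 ± 0.08) and Nacc1 (0.67 ± 0.15), at limma adjusted p of at most 0.0254. Egr1 was lower on that day as well (-0.79 ± 0.17, limma adjusted p = 0.0242), as were Lif (-0.60 ± 0.14, 0.0373), Gsk3b (-0.54 ± 0.10, 0.0152) and Klf9 (-0.66 ± 0.07, 0.00266). Jak1, the kinase below the LIF receptor, was higher (0.39 ± 0.09, limma adjusted p = 0.0352).

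Different probe sets of a member did not always move together, and the replicate difference at day 4 depended on the probe set for Esrrb and Klf5. Esrrb 1422986_at read 558, 650.5, 456 and 570.3 in replicate 2 at day 4, against 410.0, 340.3, 394 and 297 in replicate 1, a rise of 0.63 ± 0.15 (limma adjusted p over every probe set = 0.00953). That is the reverse of 1436926_at, and the third probe set, 1441921_x_at, gave -0.12 ± 0.12 (limma adjusted p = 0.52). At day 12 both of these other probe sets were higher in replicate 2, by 0.70 ± 0.15 and 0.77 ± 0.12 (limma adjusted p = 0.0266 and 0.00899). A direction for Esrrb by replicate number at day 4 therefore rests on which probe set is read.

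Klf5 1451739_at gave 0.11 ± 0.13 at day 4 (limma adjusted p = 0.584), against -0.85 ± 0.12 for 1451021_a_at. The second Klf4 probe set, 1417395_at, went the same way as the first and further, with 675, 448, 778 and 726 in replicate 2 at day 4, against 1815, 1052, 1833 and 1418 in replicate 1 (-1.21 ± 0.13, limma adjusted p = 1.46e-04). For Tbx3, 1437479_x_at was lower as well, at -0.98 ± 0.17 (limma adjusted p = 0.00205). The further probe sets of Tfcp2l1 (readings from 0.994 to 66.1) and Klf5 1430255_at (6.23 to 69.7) were near background. Averaging all probe sets of a gene left 3 members called in replicate 2 at day 4, Klf2, Klf4 and Tbx3. The share of all entries called under that averaging was not computed. Pou5f1, Nanog, Sox2, Klf2 and Zfp42 have 1 probe set each. Where on the transcript a probe set lies is not given in the files. For KO against control at day 12, Klf4 1417395_at gave a positive difference as 1417394_at did, 0.44 ± 0.38 (limma adjusted p = 0.729).

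**Figure D4:**
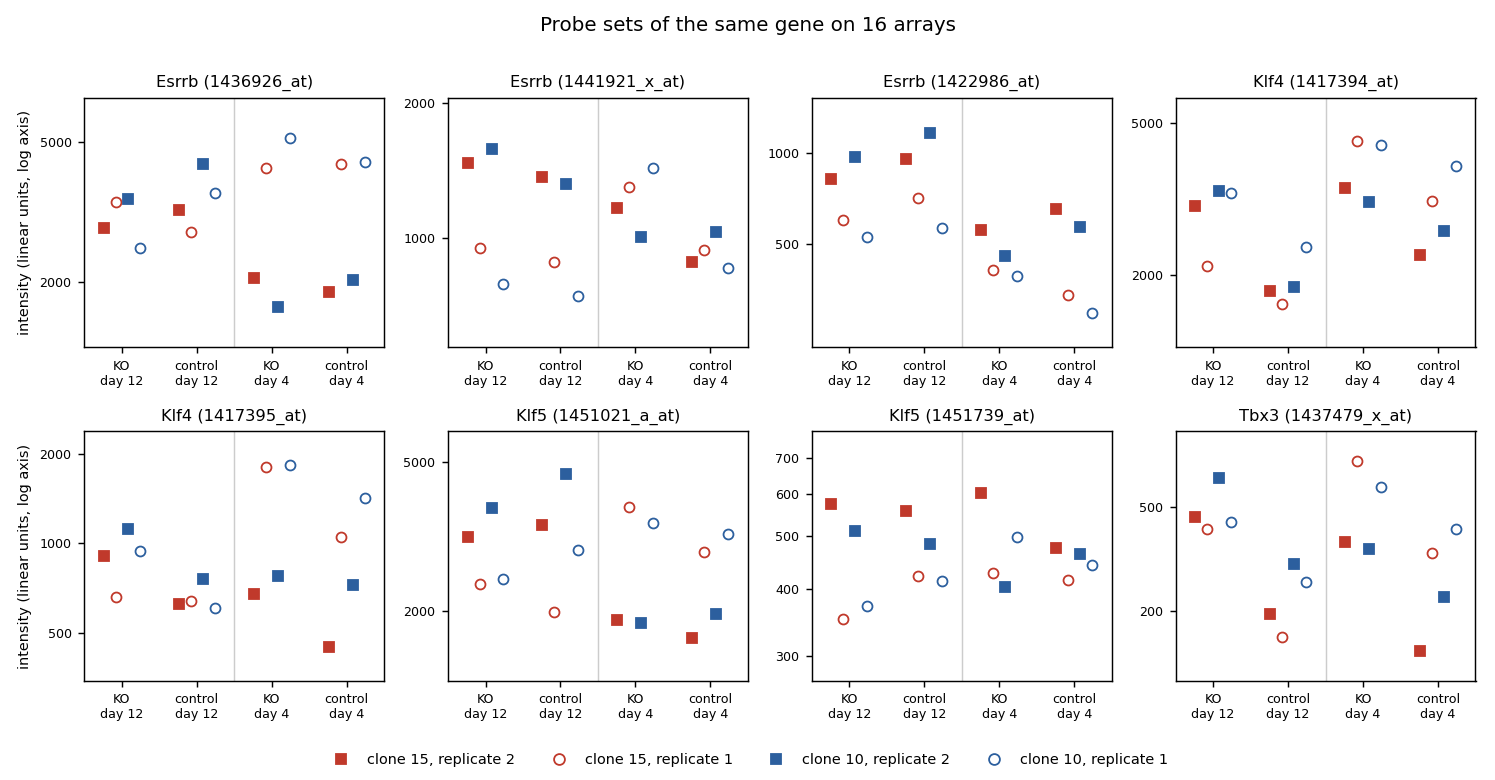
Intensity of 8 probe sets of Esrrb, Klf4, Klf5 and Tbx3 on all 16 arrays (linear units on a log axis whose range differs between panels), with symbols and group order as in the plot of the 10 genes. At day 4 replicate 2 (squares) lies below replicate 1 (circles) for Esrrb 1436926_at and above it for Esrrb 1422986_at.

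Genes with the closest profiles were looked up for the 3 members whose SD over the 16 arrays was above 0.5, as the root mean square distance between log2 profiles centred on their own means, among 9992 genes with a mean above 7. The nearest to Zfp42 were Thg1l (0.34), 3830406C13Rik (0.41) and AI662270 (0.46). Thg1l, a tRNA-modifying enzyme, had lowest, median and highest readings of 111, 159 and 259.9 in clone 15, against 366, 628 and 780.4 in clone 10. It was picked for its likeness to Zfp42 on these arrays, so its split by clone is no separate result. The nearest to Klf2 were Eif4ebp2 (0.22), an inhibitor of translation initiation, Carm1 (0.25), an arginine methyltransferase, and Smarca4 (0.26), the ATPase of the BAF remodelling complex. Nearest to Tbx3 were Ctr9 (0.23), a subunit of the PAF1 complex, Mcm9 (0.24) and Tex19.1 (0.25). These distances describe 16 arrays that share clones, days and replicate numbers.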

How the data were processed

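RNA of 16 ES cell samples was measured on Affymetrix arrays. The table holds 45101 probe sets, those of the larger array of its series, although the design text names the 430A 2.0 array. The deposited intensities are linear, and the authors made them with Affymetrix Expression Console and RMA, per the submitters' processing notes. Sorted values are identical on all arrays, which is what joint quantile normalization gives. The fit had been planned for log2 values, so the intensities were log2-transformed with no offset. The table has 0 columns of other series.

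The tests used limma 3.58.1 with statmod 1.5.0 under R 4.3.3 on 18195 entries, 1 probe set for each of 18193 genes plus 2 Rybp probe sets with several symbols. The procedure was checked on simulated data with independent noise on each array. The real arrays share shifts by replicate number, so that check does not bear on error rates under such sharing. KO, day and clone comparisons had the 4 groups and the clone as terms. Replicate comparisons added the replicate number within each day, and the comparison of KO effects across clones had a mean for each clone and group. Probe sets were also tested each on its own.

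Members and lists were chosen with earlier results of these data known. Named were the 10 members, of each list up to 3 genes past an adjusted p of 0.05 per direction with the smallest p or else the largest difference, and the 3 nearest profiles of members with an SD above 0.5. Some further listed genes were named after their values were seen.

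KO and control arrays of the same clone, day and replicate number shared deviations (correlations from 0.147 to 0.694 over 10002 genes, 8 pairs), so the numbers were taken to pair the samples. These deviations were from the fit of groups and clone, so they include any shift shared by all arrays of a replicate number. With the replicate number as a term the within-pair correlation was -0.058, against 0.377 without it. Alternatives were a floor, the mean of all probe sets, a filter on low genes, an intensity trend, pairs as a block, each clone, day and replicate number alone, and leaving out each array.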

Additional observations from a re-analysis of the deposited data

Results flagged for a closer look

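For 5 members the replicate 2 minus replicate 1 difference at day 12 differed from that at day 4, by the test of that difference itself. It was 2.20 ± 0.24 for Klf2, 1.47 ± 0.17 for Klf5, 1.42 ± 0.20 for Esrrb, 0.87 ± 0.18 for Tfcp2l1 and 0.85 ± 0.19 for Tbx3, on the log2 scale. For Esrrb and Klf5 these values hold for the probe set of highest level alone. Esrrb 1422986_at was higher in replicate 2 in 4 of 4 pairs on either day, by 0.21 to 0.94 at day 4 and 0.43 to 1.04 at day 12. The limma adjusted p ran from 3.78e-04 for Klf2 to 0.0106 for Tbx3, where 22.5% of all entries passed. Within a group of 4 arrays, 0 of the 40 member groups held an array standing apart by Dixon's test on linear values. The rate of about 1 in 20 by chance holds only for 4 readings of a single population. Each group mixed 2 clones and 2 replicate numbers, and a split of 2 against 2 arrays can mask an array apart. The empty result therefore does not show that no array stood apart.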

How the results depend on the processing

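Of 770 member values under alternatives other than leaving out an array, 714 kept their sign and side of the threshold, 11 lost the threshold and 25 gained it, 20 changed sign with neither value past it, and 0 changed sign with a call. For KO against control at day 12, 1 member passed, 2 with a floor at the 25th percentile, 2 with an intensity trend, 3 with the replicate block and 4 with the replicate number as a term, but 0 with the mean of all probe sets and 0 within clone 15 or within clone 10. At day 4 the count was 0, and 1 with the replicate number as a term. For day 12 against day 4 the count was 0, and 1 with the replicate number as a term in control cells. In KO cells it was 1 with the floor, 1 with genes above the median level only, 1 with the trend and 1 with the replicate number as a term. Between the clones it was 1, and 2 with that term. For replicate 2 against replicate 1 the count at day 4 was 7, and 3 with the mean of all probe sets, and at day 12 it was 1, and 2 with the floor, the filter, the trend or the replicate block. The replicate block changed no other count of calls by over 1.5 times. Without 1 array the counts were 0 to 0 for KO at day 4, 1 to 1 at day 12 and 1 to 1 for the clones. They were 5 to 8 for the replicate numbers at day 4, 5 to 6 for their difference between days, and 0 to 2 at day 12 (0 without KO day 12 clone 10 replicate 1 or without replicate 2 of the clone 10 controls of day 12, and 2 without replicate 1 of those controls). The cause of these changes was not tested. For the floor, the filter, the trend, the mean of all probe sets, the fits within a clone and those without 1 array, the share of all entries called was not computed. Those counts thus stand without a rate to read them against.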
